A study of Homo sapiens with 6 samples.

Results

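Antigen presentation by MHC class I was followed through 9 genes: the heavy chains HLA-B, HLA-C and HLA-E, the light chain B2M, the peptide transporter subunits TAP1 and TAP2, the loading factor TAPBP, and the immunoproteasome subunits PSMB8 and PSMB9. The 9 genes were chosen with earlier results of these data known. Their rows were found by gene symbol and not by any measured value, and each symbol stood on a single row of the deposited table. These are 9 of 60612 genes in the table, and all 9 had enough counts to be among the 15937 genes tested. The cells were A549, a human lung adenocarcinoma line with epithelial features. RNA was sequenced from 3 samples in which GSE1 was knocked down by siRNA (siGSE1) and from 3 that received a negative control siRNA (control), 48 hours after transfection. GSE1 is a nuclear protein that associates with histone deacetylase complexes. Both groups had therefore received a transfected siRNA, and no untransfected cells were among the samples analysed here. Whether the replicates were separate cultures is not given in the labels, so the p-values below speak to the scatter among these 6 libraries, part or all of which may be technical.

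MHC class I molecules show short peptides from inside the cell to cytotoxic T cells and natural killer cells. Proteasomes cut proteins into peptides, the TAP transporter carries them into the endoplasmic reticulum, tapasin helps load them onto a heavy chain paired with beta-2-microglobulin, and the complex travels to the cell surface. Interferons raise most of these genes through STAT and IRF factors, and the coactivator NLRC5, together with the RFX, ATF/CREB and NF-Y factors, acts on the promoters of the heavy chains and B2M.

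Libraries held 14475992 to 20755506 counts. The targeted gene GSE1 had 3.84, 4.06 and 3.73 FPKM in the siGSE1 libraries, against 7.37, 8.06 and 7.92 FPKM in the control libraries. Its log2 fold change was -1.03, with a standard error (SE) of 0.06 and an edgeR adjusted p of 2.14e-08. FPKM are counts scaled to exonic length and library total. That length can exceed the length of a transcript, by amounts that differ between genes. It was 6079 bases for B2M and 2922 for HLA-E, whose transcripts with the longest coding sequence have 1705 and 2601 bases. FPKM of different genes, and their order, are therefore not a direct measure of relative transcript level, which is the limit of exonic length. Control replicate 2 stood apart, with a chi-square per degree of freedom of 10.1 and 8.97 against the other control libraries, where the remaining pairs within a group had 2.49 to 4.595. Of the 15937 genes tested by edgeR's quasi-likelihood test, 19.9% passed an adjusted p of 0.05, 10.9% higher and 9.02% lower in siGSE1 cells. Of the genes that passed, 54.6% were higher in siGSE1 cells with TMM scaling and 73.3% with TPM scaling. Among the epithelial markers the keratins KRT8, KRT18 and KRT7 were abundant, at 640, 773 and 579 FPKM in siGSE1 cells and 754, 902 and 576 FPKM in control cells, while EPCAM was under 1 FPKM in both groups. KRT8, KRT18 and the tight junction gene CLDN4 fell, 3 of 8 epithelial markers. KRT18 (log2 fold change -0.25) had an adjusted p of 0.0716 without control replicate 2, and KRT8 and KRT18 both lost their calls without any 1 siGSE1 library. Of 14 leukocyte markers, 12 were under 1 FPKM in both groups, and their summed level ran from 4.82 to 7.72 FPKM in siGSE1 libraries and from 4.75 to 7.40 FPKM in control libraries. The most abundant leukocyte markers were CD14, at 3.88 ± 0.88 FPKM in siGSE1 cells and 4.15 ± 1.32 FPKM in control cells (SD, n = 3 each), and ITGAM, at 0.93 and 1.05 FPKM.

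HLA-B fell in siGSE1 cells and no other gene of the 9 passed the test. HLA-B changed by -39.1%, with a 95% interval from -51.9% to -23.0%, while the intervals of B2M, HLA-E, TAP1, TAP2, TAPBP and PSMB9 all included no change. HLA-C and PSMB8 had changes of -12.1% and -15.9%, with intervals that reached -0.19% and -0.59% and edgeR adjusted p of 0.147 and 0.139, and did not pass. In all 1 of the 9 was lower and 0 were higher, where 19.9% of all genes tested changed in either direction, so the count is no larger than that background. The same count of 0 higher came from DESeq2 and limma, and at an unadjusted p under 0.05, 0 of the 9 were higher and 3 were lower. The median log2 fold change of the 9 was 0.02, and that of all genes tested was 0.00. The bulk measurement cannot tell fewer cells with a transcript from less transcript per cell.

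**Figure D1:**
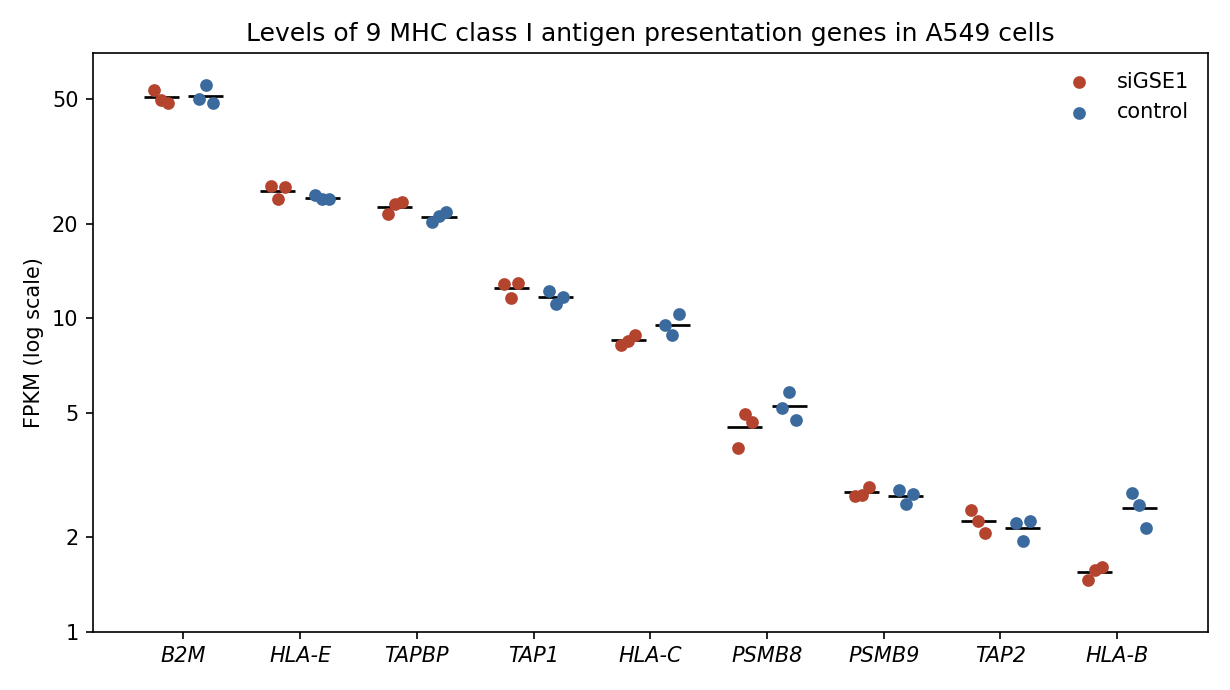
FPKM on a log scale (vertical axis) for the 9 genes (horizontal axis, ordered by mean level), with 1 point per library, siGSE1 left of control, and a bar at the mean of 3 libraries. HLA-B is the gene whose siGSE1 points, 1.46 to 1.61 FPKM, lie farthest below its control points, 2.15 to 2.78 FPKM.

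By FPKM, the levels spanned a wide range in these cells. Their order, and the share of tested genes that each lay above, carry the limit of exonic length given above. B2M was the most abundant, at 50.5 ± 2.49 FPKM in siGSE1 cells and 51.2 ± 3.55 FPKM in control cells, above 95.5% of the genes tested by its mean over all libraries. HLA-E followed at 25.5 ± 1.28 and 24.2 ± 0.46 FPKM, TAPBP at 22.7 ± 0.99 and 21.1 ± 0.75 FPKM, and TAP1 at 12.5 ± 0.75 and 11.7 ± 0.55 FPKM in siGSE1 and control cells (SD, n = 3 each). HLA-C, PSMB8 and PSMB9 came next, and TAP2 and HLA-B were at the bottom, HLA-B lying above only 37.0% of the genes tested. The 6-library ranges of neighbours in this order did not overlap, except those of TAP2 (1.95 to 2.44 FPKM) and HLA-B (1.46 to 2.78 FPKM), which did. The range of HLA-B also reached into that of PSMB9 (2.55 to 2.90 FPKM).

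HLA-B (ENSG00000234745, chromosome 6, 31269491 to 31357188, minus strand, hg38) encodes a classical class I heavy chain, which binds the peptide and is read by T cell receptors. It had 1.46, 1.58 and 1.61 FPKM in the siGSE1 libraries, against 2.78, 2.54 and 2.15 FPKM in the control libraries. Every siGSE1 library was below every control library, and the nearest pair was siGSE1 replicate 3 and control replicate 3. These levels rest on 78, 93 and 98 counts in siGSE1 libraries and on 174, 161 and 95 counts in control libraries, the last from the shallowest library. The log2 fold change was -0.72 (edgeR adjusted p = 0.00487, SE 0.16), which is 1.64-fold lower, with a 95% interval from -1.06 to -0.38. The median log2 fold change of all genes that fell was -0.34. HLA-B kept its call under all 15 alternatives run, with adjusted p from 7.43e-04 to 0.0260, and its log2 fold change was -0.71 without control replicate 2.

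HLA-C (ENSG00000204525, chromosome 6, 31268749 to 31272130, minus strand) is the neighbouring classical heavy chain and the main ligand of inhibitory receptors on natural killer cells. It had 8.2, 8.48 and 8.83 FPKM in siGSE1 libraries, against 9.48, 8.86 and 10.3 FPKM in control libraries. The groups did not overlap, by the narrow margin between siGSE1 replicate 3 and control replicate 2. HLA-B and HLA-C are thus 2 of the 9 whose groups did not overlap, both lower, where 36.1% of all genes tested did not overlap and 14.9% lay lower. The log2 fold change of HLA-C was -0.19 (SE 0.09, 95% interval from -0.37 to -0.00, edgeR adjusted p = 0.147). HLA-E (ENSG00000204592, chromosome 6, 30489509 to 30494194, plus strand), a nonclassical heavy chain that presents leader peptides of other class I chains, had 26.4, 24.0 and 26.1 FPKM in siGSE1 libraries and 24.8, 24.0 and 24.0 FPKM in control libraries. The HLA-E groups overlapped, and its log2 fold change of 0.05 had a 95% interval from -0.08 to 0.18.

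**Figure D2:**
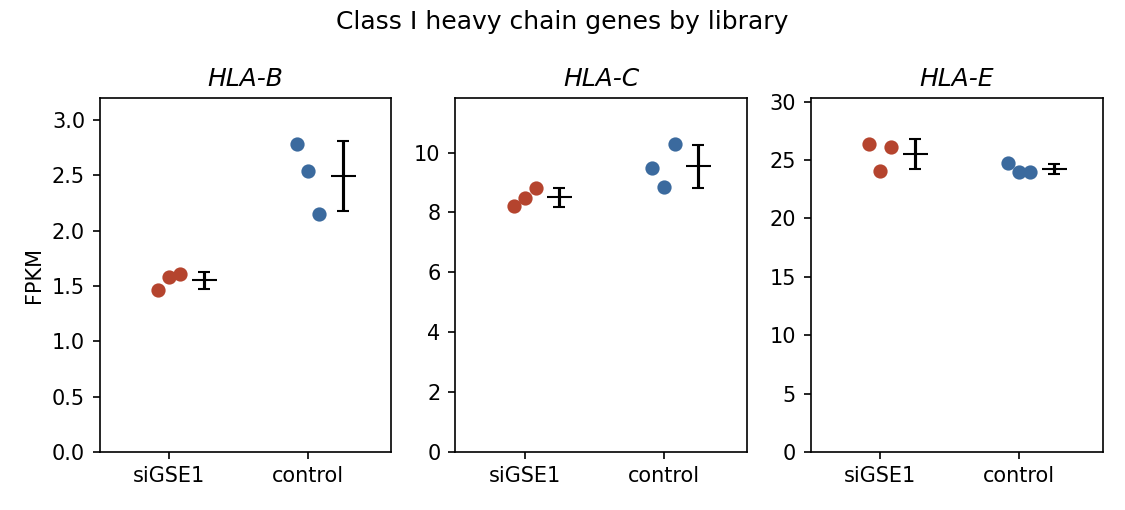
FPKM (vertical axes, from 0) of the class I heavy chain genes HLA-B, HLA-C and HLA-E in each library, siGSE1 left of control, with the mean and SD of 3 libraries beside the points. HLA-B and HLA-C show no overlap between groups, and those of HLA-E do overlap.

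The summed FPKM of HLA-B, HLA-C and HLA-E was 36.0, 34.1 and 36.6 in siGSE1 libraries and 37.0, 35.4 and 36.4 in control libraries, so the groups overlapped. Divided by B2M, it was 0.676, 0.686 and 0.754 in siGSE1 libraries and 0.742, 0.640 and 0.750 in control libraries, which overlapped as well. The sum and its ratio to B2M carry the limit of exonic length, so their sizes do not give the proportion of heavy to light chain transcripts. The ratio of HLA-B to HLA-C FPKM was 0.178, 0.186 and 0.182 in siGSE1 libraries, against 0.293, 0.287 and 0.209 in control libraries. It was lower in 3 of 3 siGSE1 libraries than in any control library, a log2 difference of -0.51 with an exact two-sided permutation p of 0.1, the smallest that 3 libraries against 3 allow, and 0.25 after adjustment over 5 ratios.

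HLA genes are among the most variable human genes, and reads from an allele unlike the reference may be lost or assigned to a relative. The alleles of A549 were not compared with the reference here, so the order of the heavy chain levels carries that limit. In GENCODE release 29, 26.2% of the 50-base windows of the HLA-B transcript with the longest coding sequence also occur in transcripts of other genes. Most of those, 23.8% of all windows, belong to the antisense gene AL671883.2, which had 0 counts in every library, and 1.63% are shared with HLA-C. Of 3051 exonic bases of HLA-B, 542 lie opposite exons of AL671883.2. Counts there depend on how shared reads were assigned and on whether the counting used the strand, which the labels do not say. The 0 counts do not settle this. For HLA-C the shared portion was 6.71% and for HLA-E 5.76%. The deposited span of HLA-B runs across HLA-C, but only 35 exonic bases are common to both in that release.

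Promoters of 5 members are shown because they carry known elements of the class I pathway in different arrangements. Sequences are from the RefSeq promoter table for GRCh38.p14, which held 8 of the 9 genes, each as 250 bases before and 50 bases from a start. The motifs searched, on both strands, were the core of the interferon-stimulated response element (GAAA, any 2 bases, GAAA), the STAT element (TTC, any 3 bases, GAA), the NF-kappaB consensus by name, the Y box CCAAT bound by NF-Y, and the core TGACG of the X2 box bound by ATF and CREB factors. Of all 35116 promoters, 3.57% held the response element core, 7.66% the STAT element, 5.91% the NF-kappaB consensus, 34.6% CCAAT and 24.6% TGACG. Matches may overlap each other, and a match is a description of letters, not of binding. Capitals mark the matches of all motifs but the STAT element, and each run reads 5′ to 3′ on the gene's strand.
HLA-B (chr6:31357219-31357364, minus strand, 185 to 40 bases before the start): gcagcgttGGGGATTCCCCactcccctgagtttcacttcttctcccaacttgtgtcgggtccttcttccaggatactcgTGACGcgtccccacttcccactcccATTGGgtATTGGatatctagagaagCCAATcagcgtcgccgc
HLA-C (chr6:31272132-31272292, minus strand, 200 to 40 bases before the start): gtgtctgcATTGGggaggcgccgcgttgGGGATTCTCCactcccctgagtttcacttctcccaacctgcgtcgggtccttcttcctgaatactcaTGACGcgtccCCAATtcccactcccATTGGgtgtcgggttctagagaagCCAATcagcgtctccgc
B2M (chr15:44711367-44711477, plus strand, 150 to 40 bases before the start): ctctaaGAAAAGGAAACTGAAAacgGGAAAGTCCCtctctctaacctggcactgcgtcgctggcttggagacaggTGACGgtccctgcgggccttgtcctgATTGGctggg
TAP1 (chr6:32853759-32853844, minus strand, 140 to 55 bases before the start): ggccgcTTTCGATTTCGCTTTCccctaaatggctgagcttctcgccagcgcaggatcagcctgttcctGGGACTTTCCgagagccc
TAPBP (chr6:33314079-33314140, minus strand, 62 to 1 bases before the start): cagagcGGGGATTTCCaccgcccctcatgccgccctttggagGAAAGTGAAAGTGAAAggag

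The promoters of HLA-B and HLA-C were 88.5% identical over 304 aligned columns. Each held an NF-kappaB match, TGACG and several copies of CCAAT or its complement ATTGG, 3 in HLA-B and 4 in HLA-C. B2M also held an NF-kappaB match, TGACG and ATTGG, together with 2 overlapping copies of the response element core. HLA-B and HLA-C had 0 matches to that core. Only GAAA, any 2 bases, GAAA was searched, so other forms of the element would be missed, and its absence from these promoters is not shown. TAP1 and TAPBP each held 2 overlapping copies of that core and an NF-kappaB match in the bases shown. The table gives TAP1 and PSMB8 a pair of starts each. The STAT element matched at the other start of TAP1, not in the promoter shown, and at 1 of the starts of PSMB8.

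B2M (ENSG00000166710, chromosome 15, 44711487 to 44718877, plus strand) encodes the light chain that every class I heavy chain needs. It had 53.3, 49.7 and 48.5 FPKM in siGSE1 libraries, against 49.9, 55.2 and 48.5 FPKM in control libraries. The groups overlapped throughout, from 4271 to 6969 counts a library. The log2 fold change was -0.05 (SE 0.06, 95% interval from -0.17 to 0.08, edgeR adjusted p = 0.647), and it was 0.02 with TPM scaling and 0.01 without control replicate 2. In percent, the interval runs from -11.2% to 5.73%.

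TAP1 (ENSG00000168394, chromosome 6, 32845209 to 32853978, minus strand) and TAP2 (ENSG00000204267, chromosome 6, 32821833 to 32838770, minus strand) encode the subunits of the peptide transporter. TAP1 had 12.9, 11.6 and 12.96 FPKM in siGSE1 libraries and 12.2, 11.1 and 11.7 FPKM in control libraries. TAP2 had 2.44, 2.26 and 2.07 FPKM in siGSE1 libraries and 2.23, 1.95 and 2.25 FPKM in control libraries. Both genes overlapped between the groups, with log2 fold changes of 0.07 (95% interval from -0.07 to 0.22) and 0.05 (95% interval from -0.18 to 0.28). The ratio of TAP1 to TAP2 FPKM was 5.56 ± 0.61 in siGSE1 cells and 5.45 ± 0.26 in control cells (SD, n = 3 each, exact two-sided permutation p = 0.9). Of the TAP2 exons, 32.3% lie under exons of AL669918.1 on the same strand, and 9.49% of the TAP1 exons lie opposite PSMB8-AS1, so counts there depend on how shared reads were assigned. TAPBP (ENSG00000231925, chromosome 6, 33299694 to 33314387, minus strand) encodes tapasin, which holds the heavy chain to the transporter. It had 21.6, 23.0 and 23.4 FPKM in siGSE1 libraries and 20.3, 21.2 and 21.8 FPKM in control libraries, overlapping at 1 siGSE1 library, with a log2 fold change of 0.08 (95% interval from -0.03 to 0.20, edgeR adjusted p = 0.331).

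**Figure D3:**
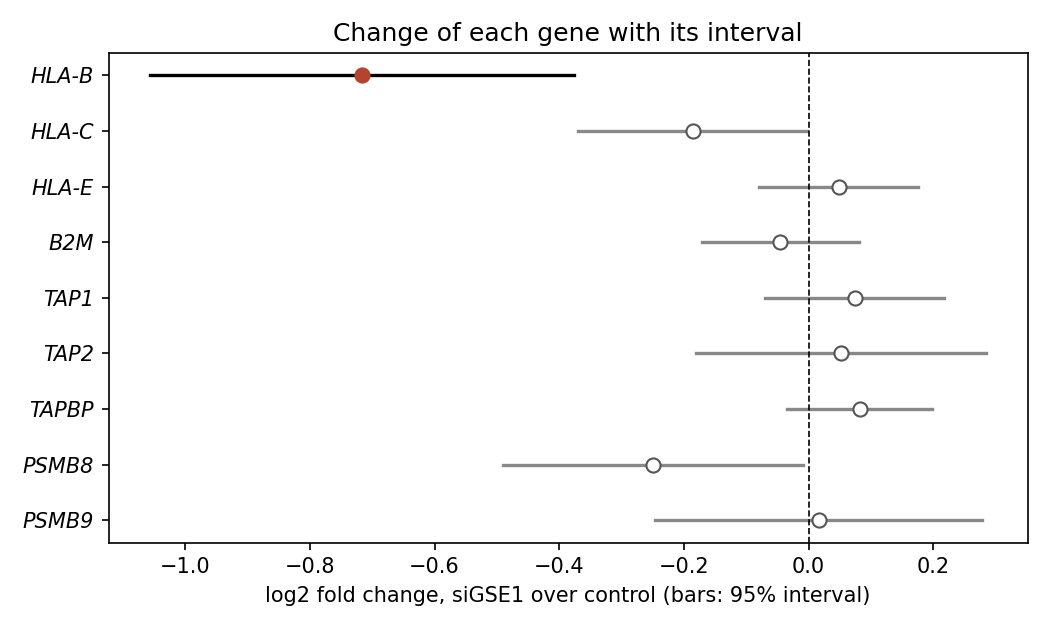
Log2 fold change of siGSE1 over control (horizontal axis) for each of the 9 genes (vertical axis, by role), with 95% intervals as bars and a filled point where the edgeR adjusted p was at most 0.05. The interval of HLA-B runs from -1.06 to -0.38, and those of HLA-E, B2M, TAP1, TAP2, TAPBP and PSMB9 cross 0.

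PSMB8 (ENSG00000204264, chromosome 6, 32840717 to 32844679, minus strand) and PSMB9 (ENSG00000240065, chromosome 6, 32844136 to 32859851, plus strand) encode catalytic subunits that replace PSMB5 and PSMB6 when immunoproteasomes form. PSMB8 had 3.85, 4.95 and 4.66 FPKM in siGSE1 libraries, against 5.17, 5.80 and 4.72 FPKM in control libraries. Only control replicate 3 lay within the range of the siGSE1 libraries. The log2 fold change was -0.25 (SE 0.11, 95% interval from -0.49 to -0.01, edgeR adjusted p = 0.139). PSMB9 had 2.72, 2.74 and 2.90 FPKM in siGSE1 libraries and 2.83, 2.55 and 2.75 FPKM in control libraries, which overlapped, with a log2 fold change of 0.02 (95% interval from -0.25 to 0.28). Of the PSMB8 exons, 20.6% lie opposite PSMB8-AS1 or PSMB9, whose strand cannot be separated unless the counting used it, and the labels do not say whether it did.

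Both immunoproteasome subunits had lower FPKM than the constitutive ones, a comparison that carries the limit of exonic length. That length was 3480 and 3338 bases for PSMB8 and PSMB9, against 1549 and 1447 for PSMB5 and PSMB6. The transcripts of PSMB8 and PSMB9 with the longest coding sequence have 1124 and 782 bases. PSMB5 and PSMB6 had 127 ± 2.36 and 101 ± 2.52 FPKM in siGSE1 cells, against 140 ± 5.03 and 113 ± 4.35 FPKM in control cells (SD, n = 3 each). The ratio of PSMB8 to PSMB5 was 0.0304 to 0.0395 in siGSE1 libraries and 0.0338 to 0.0430 in control libraries, and overlapped (exact two-sided permutation p = 0.6). Its log2 difference of -0.09 was 0.01 without siGSE1 replicate 1 and 0.01 without control replicate 2. The ratio of PSMB9 to PSMB6 was 0.0276, 0.0268 and 0.0280 in siGSE1 libraries, against 0.0241, 0.0231 and 0.0251 in control libraries. It was higher in 3 of 3 siGSE1 libraries, a log2 difference of 0.19 with an exact two-sided permutation p of 0.1 and 0.25 after adjustment over 5 ratios. PSMB9 itself had a log2 fold change of 0.02 (edgeR adjusted p = 0.949), while PSMB6, the denominator, had -0.18 (edgeR adjusted p = 0.0308). The ratio of PSMB10, which replaces PSMB7, was 0.0624 ± 0.0033 in siGSE1 cells and 0.0687 ± 0.0076 in control cells (SD, n = 3 each, exact two-sided permutation p = 0.4).

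The other genes of the pathway were taken from lists by role, and each list's count stands against the 19.9% of all genes tested that passed, 10.9% higher and 9.02% lower. Of 8 proteasome genes (immunoproteasome partners and constitutive catalytic subunits), 3 passed, all lower: the activator subunit PSME1 (log2 fold change -0.18), PSMB6 (-0.18) and PSMB5 (-0.16), with edgeR adjusted p from 0.0308 to 0.0400. The list median was -0.14. With TPM scaling none of the 3 passed, and none passed without any 1 of the siGSE1 libraries. Without control replicate 1, PSMB5 and PSMB6 had adjusted p of 0.129 and 0.116, and without control replicate 3 PSME1 had 0.0680. Among 6 tested class I chains outside the 9, MICA, a stress-induced ligand of the receptor NKG2D on natural killer cells, fell. It had 6.06, 5.90 and 6.58 FPKM in siGSE1 libraries, against 8.73, 6.84 and 8.04 FPKM in control libraries, a log2 fold change of -0.37 (edgeR adjusted p = 0.0118, SE 0.10). Its adjusted p was 0.0504 without siGSE1 replicate 1, 0.0655 without siGSE1 replicate 2 and 0.0665 without control replicate 1. HLA-G was listed at 0 in all libraries, and the median of the list was -0.15.

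Of 13 peptide trimming and loading genes tested, 3 passed, a share near the 19.9% of all genes tested. All 3 were higher, and the list median was 0.11. They were PDIA3, a disulfide isomerase of the loading complex (log2 fold change 0.27, edgeR adjusted p = 0.00156), HSPA5, the main chaperone of the endoplasmic reticulum (0.22, adjusted p = 0.00450), and CALR, which holds newly made heavy chains for loading (0.18, adjusted p = 0.0199). PDIA3 had 84.3, 80.4 and 81.7 FPKM in siGSE1 libraries, against 68.6, 67.6 and 65.1 FPKM in control libraries, with no overlap. CALR lost its call without siGSE1 replicate 1, 2 or 3 or control replicate 3, with adjusted p from 0.0608 to 0.1002. The trimming peptidases ERAP1 and ERAP2, which shorten peptides inside the endoplasmic reticulum, had log2 fold changes of 0.19 and -0.24 and adjusted p of 0.170 and 0.498, and were named after their values were seen.

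**Figure D4:**
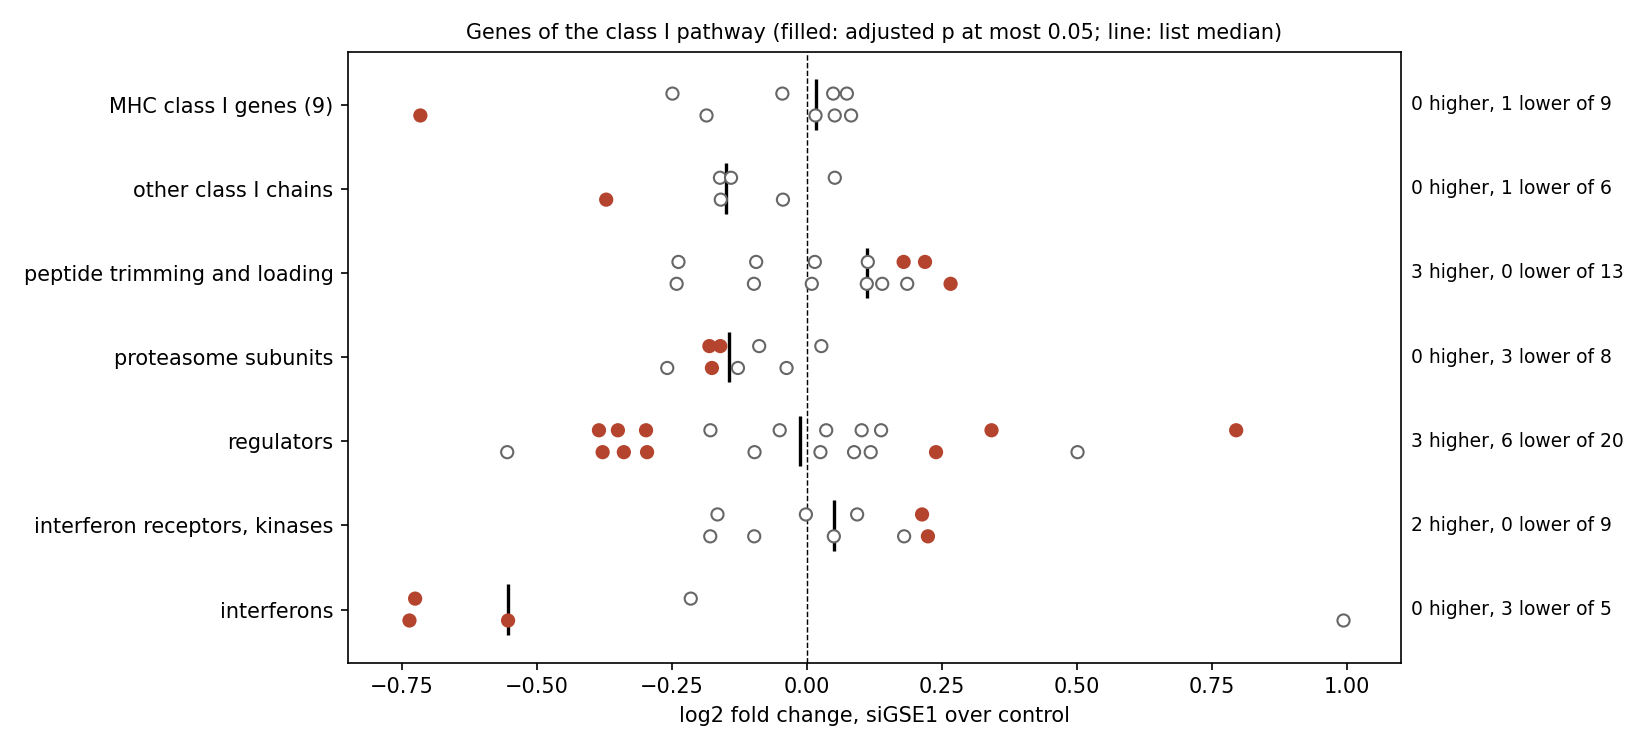
Log2 fold change of siGSE1 over control (horizontal axis) for the tested genes of 7 groups of the class I pathway (vertical axis), filled where the edgeR adjusted p was at most 0.05, with the group median as a line and the number of passing genes in each direction at the right. The regulators spread from -0.56 to 0.80, while 8 of the 9 class I genes lie between -0.25 and 0.08.

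Transcriptional regulators of class I genes changed in both directions. Among 20 such genes, 9 passed, where 19.9% of all genes tested did. Of the 9, 6 were lower and 3 higher, and the median log2 fold change of the list was -0.01. RFX5, an X box factor, had 12.3, 11.97 and 12.3 FPKM in siGSE1 libraries, against 15.3, 14.9 and 13.8 FPKM in control libraries, with no overlap (log2 fold change -0.30, edgeR adjusted p = 0.00335). NFYC, a subunit of the Y box factor NF-Y, fell by 0.39 and USF2, an E box factor, fell by 0.38 on the log2 scale. The cyclic AMP response factor ATF1 rose 1.73-fold, to 9.54, 10.1 and 10.3 FPKM in siGSE1 libraries, against 5.03, 6.23 and 5.69 FPKM in control libraries (edgeR adjusted p = 2.12e-05). NFKB1, a subunit of NF-kappaB, rose by 0.34 on the log2 scale (adjusted p = 0.00208). RFX5, NFYC, USF2, ATF1 and NFKB1 kept their calls under all 15 alternatives.

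NLRC5, IRF1 and IRF9 were named after their values were seen. NLRC5, the class I coactivator, had 0.93, 1.00 and 1.04 FPKM in siGSE1 libraries, against 1.21, 1.27 and 1.22 FPKM in control libraries, a log2 fold change of -0.34 (edgeR adjusted p = 0.0278, SE 0.10). That call held under 5 of 15 alternatives, and was lost without siGSE1 replicate 1, 2 or 3 or control replicate 1 or 2, with adjusted p from 0.0532 to 0.109, and with TPM scaling (0.0663). IRF1, an interferon-induced activator of TAP1 and PSMB9, had a log2 fold change of -0.30 (edgeR adjusted p = 0.0153). The IRF1 call held under 10 of 15 alternatives. It was lost without siGSE1 replicate 1 (adjusted p = 0.0582) or 2 (0.0717), with TPM scaling (0.0569) and with limma (0.0887 and 0.0936). IRF9, a DNA-binding factor of the type I interferon response, had 0.89, 0.92 and 1.08 FPKM in siGSE1 libraries and 1.37, 1.21 and 1.64 FPKM in control libraries (log2 fold change -0.56, adjusted p = 0.0534), which did not pass.

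Transcripts of type III interferons were present in both groups and lower in siGSE1 cells. Of the 5 interferons tested 3 passed, all lower, where 9.02% of all genes tested were lower. IFNL1 had 13.7, 12.2 and 10.5 FPKM in siGSE1 libraries, against 15.3, 20.8 and 16.1 FPKM in control libraries, a log2 fold change of -0.55 (edgeR adjusted p = 0.0110, SE 0.14). It had an adjusted p of 0.0749 without siGSE1 replicate 3. IFNL2 and IFNL3 fell by 0.73 and 0.74 on the log2 scale (adjusted p = 0.00566 and 0.00954), but these near copies share 32.0% and 33.0% of their 50-base windows with other genes, so their separate values are uncertain. IFNB1, the fibroblast interferon, had 2.89 ± 0.92 FPKM in siGSE1 cells and 3.28 ± 0.99 FPKM in control cells (SD, n = 3 each, edgeR adjusted p = 0.653), and IFNG was listed at 0 in all libraries. IFNE, an epithelial interferon named after its values were seen, had 2.67, 2.77 and 2.18 FPKM in siGSE1 libraries and 0.59, 1.05 and 2.29 FPKM in control libraries, which overlapped (log2 fold change 0.99, edgeR adjusted p = 0.0518). Of the 9 tested receptors and kinases 2 passed, a share near the 19.9% of all genes tested. IFNAR1, a subunit of the type I interferon receptor, and JAK1, a kinase of interferon receptors, were higher, with log2 fold changes of 0.21 and 0.22 and adjusted p of 0.0254 and 0.0297. Neither passed without any 1 of the siGSE1 libraries, IFNAR1 had an adjusted p of 0.0903 without control replicate 3, and JAK1 had 0.0621 without control replicate 2. The part of the interferon and regulator levels in the fall of HLA-B was not tested.

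MHC class II genes, which mark antigen-presenting leukocytes, were nearly absent, with 10 of 12 under 1 FPKM in both groups. The exceptions were the loading factors HLA-DMB and HLA-DMA. HLA-DMB had 7.89, 7.87 and 6.71 FPKM in siGSE1 libraries, against 8.43, 13.99 and 8.72 FPKM in control libraries, a log2 fold change of -0.50 (edgeR adjusted p = 0.0218). Control replicate 2 was the highest library by a wide margin, and without it the log2 fold change was -0.22 (adjusted p = 0.0503). The call was also lost without siGSE1 replicate 1, 2 or 3, with adjusted p from 0.0509 to 0.134, and with DESeq2 (0.178), limma (0.154 and 0.163) and the robust prior (0.254).

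The genes most like the mean of the 9 over the 6 libraries, by the root mean square difference of log2 CPM (counts scaled to library size) centred on each gene's own mean, were S100A6, CLPTM1 and PIAS4, at 0.0108, 0.0124 and 0.0133 among 6929 genes of at least 5 FPKM. S100A6, CLPTM1 and PIAS4 had log2 fold changes of -0.10, -0.09 and -0.09, where the median of the 9 was 0.02 and 5 of the 9 were positive. HLA-B, with the largest change, weighs on the mean, so the likeness does not hold for each member. For TAP1 alone the closest genes were LMNB1, CDCA3 and MOCS2, at 0.01825, 0.01855 and 0.02315. None of these 6 passed the test, with adjusted p from 0.143 to 0.685.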

How the data were processed

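The 6 libraries were made with a TruSeq RNA kit from 500 ng of total RNA, per the labels' protocols. The authors deposited whole-number counts per gene, with no normalization, and FPKM values for each library. Each deposited FPKM equals the count divided by exonic length and library total within 0.0051 in all 363672 values. Per the submitters' processing notes, the tools included HISAT2, HTSeq, edgeR and StringTie 1.3.3b and the build was hg38, whereas the series text names STAR and DESeq2. Strand handling and annotation release: not given in the sources used here.

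Counts were analysed with edgeR 4.0.16 in R 4.3.3. Genes were kept by filterByExpr (minimum count 10, minimum total 15), scaled by TMM, and tested by the quasi-likelihood test with group alone in the model. Benjamini-Hochberg adjustment ran over all 15937 genes, with a threshold of 0.05. Standard errors are the absolute log2 fold change over the square root of F, and 95% intervals use the t distribution of the fit. Ratios of FPKM were compared by exact permutation. The code was tested on simulated counts with 200 changed genes. Alternatives were DESeq2 1.42.0, limma 3.58.1 on log2(FPKM + 1), other scalings and filters, and leaving out each library.

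The members and the lists were chosen with earlier results of these data known. Named genes are the members, up to 6 passing genes of each list by adjusted p or otherwise its 2 most abundant, and the closest profiles. Promoters came from RefSeq (GRCh38.p14) and shared sequence from GENCODE 29. Some genes of the lists are not reported here, though they stay in the counts.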

Additional observations from a re-analysis of the deposited data

How the results depend on the processing

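Across 15 alternatives, 1 of the 9 class I genes was lower and 0 were higher each time. Directions that turned, none of a called gene, were those of the log2 fold change of B2M with TPM scaling (0.0167), and of values without 1 library: B2M ran from -0.0987 to 0.0114, TAP2 from -0.0167 to 0.110, PSMB9 from -0.0291 to 0.0591, the TAP1 to TAP2 ratio from -0.0647 to 0.0774 and the PSMB8 to PSMB5 ratio from -0.175 to 0.0142. The median of the 9 was 0.0789 with TPM scaling and ran from -0.0167 to 0.0591 without 1 library.

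Over all genes, 929 were lower with TPM scaling, and 887 and 909 under limma with pseudocounts of 1 and 0.1 FPKM; without 1 library, 1049 to 1914 were higher and 814 to 1648 lower. Of the proteasome list, 1 was lower with library totals alone, 0 with TPM scaling, 0 with no filter, 1 under limma with either pseudocount, and 0 to 3 without 1 library. Under limma with either pseudocount 0 other class I chains, 0 class II genes and 1 epithelial marker were lower and 1 interferon receptor or kinase was higher. DESeq2 gave 0 class II genes lower and 1 receptor or kinase higher. The robust prior gave 0 class II genes and 1 epithelial marker lower, and TPM scaling 1 epithelial marker. IFNE was the 1 interferon called higher with RLE size factors, TPM scaling, no filter and the replicate block. With no filter 1 leukocyte marker was higher. Without 1 library, 0 to 2 other class I chains, 0 to 1 class II genes and 1 to 3 epithelial markers were lower, and 0 to 2 receptors or kinases and 0 to 1 interferons were higher. The cause of these moves was not tested.

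Same-numbered libraries of the groups did not deviate together, with correlations of 0.02, -0.02 and 0.00 over genes, and not every library correlated best with its own number. With the replicate block 1715 genes were higher and 1382 lower, and 1 class I gene was lower. The depth limits HLA-B most, at 78 to 174 counts.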
